A study of Mus musculus with 24 samples.

Results

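The genes for 8 enzymes that act just below leucocyte receptors and for the exchange factor Vav1 were followed through experimental autoimmune myocarditis (EAM) of the mouse heart. The kinases are Lyn, Fgr, Syk, Btk and Prkcd, the lipid kinases are Pik3cd and Pik3cg, and the phospholipase is Plcg2. These 9 genes were chosen by name and matched to their Ensembl identifiers among the 41388 genes counted, and all 9 were found. Hearts of wild type male Balb/c (BALB/cAnNCrl) mice were sampled at D10, D15 and D21, with 4 EAM and 4 control hearts at each day and 24 in all. EAM mice, 8 to 10 weeks old at the first injection, received a cardiac myosin heavy chain peptide in an emulsion (SCFA, a Freund's adjuvant enriched with killed mycobacteria) on day 0 and day 7, and pertussis toxin (PTX) on day 0. Control mice received the same SCFA emulsion on both days with PBS in place of the peptide, and the same PTX, so the comparison is of the peptide on a background of adjuvant that every mouse carried. EAM hearts were picked for sequencing so that they showed inflammation where possible, which limits them as a sample of all immunized mice. RNA came from a portion of each heart and was not sorted by cell type.

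The 24 libraries held between 15814863 and 24980864 counted reads, with a median of 19469782.5. The 8 cardiomyocyte markers, among them Myh6 and Tnnt2, summed to between 31177.6 and 38111.6 CPM (reads scaled to a common library size) in control hearts, and reached at least 7973 CPM in every EAM heart, so each library held heart muscle RNA. The 4 D21 EAM libraries carry another library code than the other 20, so at D21 the library code and EAM cannot be told apart. In the D10 EAM group, replicate 1 stood apart from the other 3 hearts, and the fitted D10 changes are given with and without it. Where p-values are given they measure the spread between these hearts, each of which is labelled as a separate sample.

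In leucocytes, receptors that carry ITAM motifs are phosphorylated by Src family kinases such as Lyn and Fgr, and the phosphorylated motif recruits and activates Syk. Syk and the Tec family kinase Btk then act on Plcg2, which splits a membrane lipid into the messengers that release calcium and activate protein kinase C, and on Vav1, which loads small GTPases with GTP. Class I PI 3-kinases of the leucocyte type, with the catalytic subunits encoded by Pik3cd and Pik3cg, make the lipid that brings Btk and Vav1 to the membrane.

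The 9 genes lie on 7 chromosomes of GRCm38 and are all protein coding. Vav1 (ENSMUSG00000034116) spans 57279100 to 57328031 on the plus strand of chromosome 17, Btk (ENSMUSG00000031264) 134542336 to 134583570 on the minus strand of chromosome X, and Syk (ENSMUSG00000021457) 52583173 to 52648792 on the plus strand of chromosome 13. On chromosome 4 lie Fgr (ENSMUSG00000028874, 132974095 to 133001910, plus strand), Lyn (ENSMUSG00000042228, 3678115 to 3813122, plus strand) and Pik3cd (ENSMUSG00000039936, 149649168 to 149702571, minus strand). Pik3cg (ENSMUSG00000020573) occupies 32173473 to 32208659 on the minus strand of chromosome 12, Plcg2 (ENSMUSG00000034330) 117498291 to 117635142 on the plus strand of chromosome 8, and Prkcd (ENSMUSG00000021948) 30595354 to 30626210 on the minus strand of chromosome 14. Lyn overlaps 4 small genes on the opposite strand that held 324 reads over all samples against 35155 for Lyn. The remaining members overlap at most 1 other gene, and those overlapping genes held at most 13 reads.

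Since the 9 genes are followed as a set, their promoters were searched for the letters GAGGAA, the core that the leucocyte factor PU.1 (the product of Spi1) is known to bind, on both strands. RefSeq windows of 300 bases on GRCm38.p6, 250 before and 50 after the start base, were given for 8 members in 13 windows, and the table has no entry for Lyn. GAGGAA was found in 6 of the 13 windows, from 5 of the 8 genes, and in 28.3% of all 32851 windows and 31.3% of 27025 genes. The longer form GAGGAAGT, which contains GAGGAA, was found in 3 of the 13 windows, against 3.2% of all windows. These came from 2 of the 8 genes, Vav1 and Pik3cg, against 3.69% of all genes, and the Pik3cg windows overlap and hold the same match. TATAAA was found in 1 of the 13 windows, from Prkcd, against 13.6% of all windows. The windows that hold GAGGAA are shown 5′ to 3′ along the gene, with the match in capitals (TTCCTC where it lies on the opposite strand), and the Syk and Btk windows belong to starts inside the gene. One more Pik3cg window is left out, which overlaps the first and holds the same matches.
Vav1 promoter, chr17:57278850-57279149, plus strand: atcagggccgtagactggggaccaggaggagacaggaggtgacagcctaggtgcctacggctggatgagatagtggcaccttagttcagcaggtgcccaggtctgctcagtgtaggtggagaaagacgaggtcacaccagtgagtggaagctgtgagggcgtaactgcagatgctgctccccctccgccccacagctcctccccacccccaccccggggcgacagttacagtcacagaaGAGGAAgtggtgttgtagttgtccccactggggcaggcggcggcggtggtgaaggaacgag
Btk promoter, chrX:134583091-134583390, minus strand: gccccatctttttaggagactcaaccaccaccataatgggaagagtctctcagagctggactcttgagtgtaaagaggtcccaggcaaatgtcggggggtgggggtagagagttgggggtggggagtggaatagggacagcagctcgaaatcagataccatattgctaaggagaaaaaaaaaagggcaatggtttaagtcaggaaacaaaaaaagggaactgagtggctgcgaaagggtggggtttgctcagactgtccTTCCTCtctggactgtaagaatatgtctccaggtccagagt
Syk promoter, chr13:52596632-52596931, plus strand: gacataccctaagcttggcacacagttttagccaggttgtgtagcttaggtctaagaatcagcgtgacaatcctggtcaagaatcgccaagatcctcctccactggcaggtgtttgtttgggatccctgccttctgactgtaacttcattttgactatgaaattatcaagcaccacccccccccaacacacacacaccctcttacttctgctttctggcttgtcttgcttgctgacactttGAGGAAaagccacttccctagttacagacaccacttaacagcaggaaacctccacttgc
Fgr promoter, chr4:132973845-132974144, plus strand: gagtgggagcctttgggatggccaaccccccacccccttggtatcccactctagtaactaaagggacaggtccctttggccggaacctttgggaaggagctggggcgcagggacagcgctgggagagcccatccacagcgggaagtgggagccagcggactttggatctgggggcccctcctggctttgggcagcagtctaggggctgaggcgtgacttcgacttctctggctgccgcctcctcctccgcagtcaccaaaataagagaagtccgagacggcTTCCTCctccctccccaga
Pik3cg promoter, chr12:32208610-32208909, minus strand: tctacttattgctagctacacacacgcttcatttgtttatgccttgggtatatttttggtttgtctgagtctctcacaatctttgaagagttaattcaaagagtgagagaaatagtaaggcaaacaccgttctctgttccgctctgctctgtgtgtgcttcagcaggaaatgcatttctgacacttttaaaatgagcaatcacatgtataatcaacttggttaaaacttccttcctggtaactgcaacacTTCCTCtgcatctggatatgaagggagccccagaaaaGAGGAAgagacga
In Vav1 the match begins 11 bases before the start base and in Syk 9 bases before it, while in Btk it begins 9 bases and in Fgr 31 bases after it. In Pik3cg matches begin at the start base itself and 37 bases after it. These matches are a description of the letters, and binding was not measured.

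Before the effect of EAM is described, the level of each gene is given in the 12 control hearts as CPM per kb of exon. This is the mean over hearts, on a scale on which genes can be compared. All control mice had received SCFA and PTX, so these are not levels of untreated hearts. The mean pools D10, D15 and D21. Lyn was the most abundant member at 9.69 ± 1.0 CPM per kb (SD, n = 12), above Syk in 12 of 12 hearts. Syk (5.18 ± 0.62) and Prkcd (4.83 ± 0.43) came next and were not separated from each other, Syk being the higher in 8 of 12 hearts. Plcg2 followed at 3.69 ± 0.43 and was below Prkcd in every control heart. Pik3cd (2.23 ± 0.63) and Vav1 (2.02 ± 0.60) lay close together, with Pik3cd the higher in 10 of 12 hearts. The lowest were Btk (0.954 ± 0.299), Pik3cg (0.894 ± 0.135) and Fgr (0.801 ± 0.487), whose ranges overlapped. With the longest transcript as the length, Prkcd passed Syk and Pik3cg passed Btk in the pooled means, and the other ranks were kept. In raw reads the members ranged from 21 (Fgr) to 6616 (Syk) per library.

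**Figure D1:**
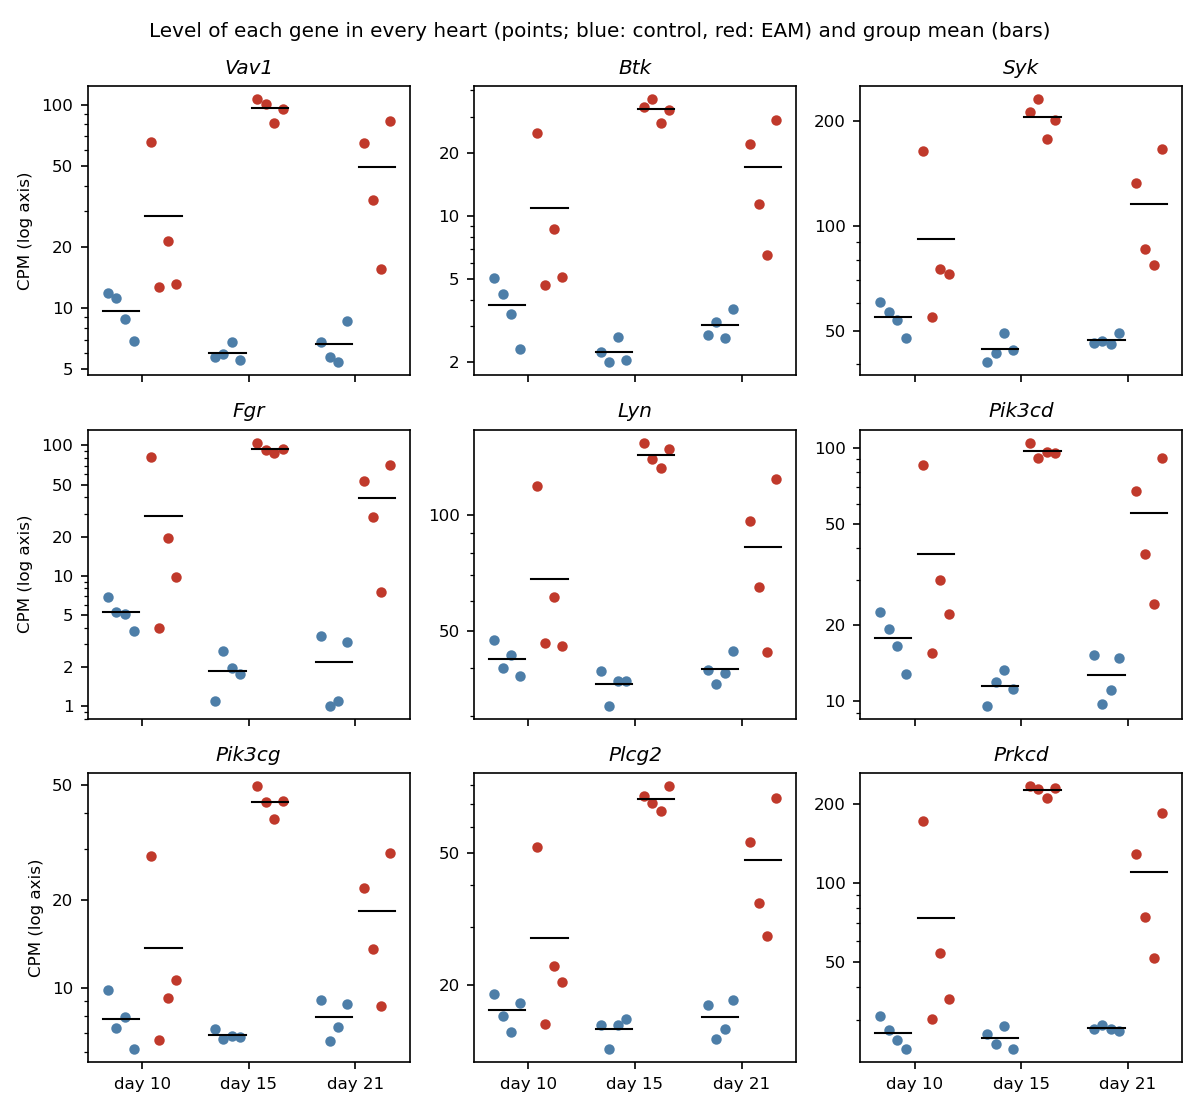
TMM-normalized CPM of each gene on a log axis (each panel has its own range) in the 4 control (blue) and 4 EAM (red) hearts at D10, D15 and D21, with bars at the group means. At D15 the EAM hearts lie together above all controls for every gene, while at D10 and D21 the EAM hearts spread widely, D10 replicate 1 and D21 replicate 4 being the highest.

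At D10 all 9 genes had higher means in EAM hearts, and 0 of 9 passed the test, with wide differences between the 4 EAM hearts. A gene was called when edgeR's quasi-likelihood test gave a Benjamini-Hochberg adjusted p (FDR) under 0.01 over all genes tested and the change was at least 2-fold. By this rule 0.0% of the 15029 genes tested were called higher and 0.0% lower at D10. At an unadjusted p under 0.05, 6 of 9 members were higher (Vav1, Btk, Syk, Fgr, Lyn and Prkcd), against 9.71% of all genes. DESeq2, the edgeR likelihood ratio test and limma-voom also called 0 of 9.

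Vav1, the exchange factor for small GTPases, had 65.9, 12.6, 21.4 and 13.2 CPM in the 4 D10 EAM hearts and 11.9, 11.2, 8.82 and 6.88 CPM in the 4 controls, in the order of their replicate numbers. Every EAM heart was above every control, although replicates 2 and 4 only barely, and Vav1 was the one member without overlap at D10, against 4.41% of all genes higher without overlap. The log2 fold change was 1.53 (SE 0.53, FDR 0.328), and without replicate 1 it was 0.68 (SE 0.23, FDR 0.414).

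Fgr, a Src family kinase of myeloid cells, had 82.1, 3.97, 19.6 and 9.77 CPM in the D10 EAM hearts against 6.85, 5.28, 5.06 and 3.77 CPM in the controls. Replicate 2 lay inside the control range, while replicate 1 was far above it, and the log2 fold change of 2.45 had an SE of 0.82. Without replicate 1 the log2 fold change of Fgr was 1.07 (SE 0.44, FDR 0.440). With all hearts the fold changes of the other 7 members were smaller, from 0.68 (Lyn) to 1.52 (Btk) on the log2 scale. Without replicate 1 they ran from 0.17 (Pik3cg) to 0.69 (Btk), and Btk was then level with Vav1. The median of the 9 was 1.10, against -0.01 for all genes tested.

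Replicate 1 was the highest D10 EAM heart for 9 of 9 members, with a median of 4.79 times the control mean and a range from 2.83 to 15.7 times. The medians of replicates 2, 3 and 4 were 1.01, 1.69 and 1.35 times, and replicate 2 was the lowest for 8 members. Without replicate 1 the median log2 fold change of the 9 was 0.33 rather than 1.10. In the same heart, 4 genes of leucocytes in general (Ptprc, Laptm5, Coro1a and Cd53) summed to 820 CPM against 165 to 327 CPM in the other 3 EAM hearts. The neutrophil markers summed to 830 against 183 to 356 CPM, and the monocyte and macrophage markers to 2899 against 931 to 1629 CPM. The T cell markers summed to 32.1 against 3.91 to 11.5 CPM, and the NK cell markers to 18.5 against 2.04 to 7.24 CPM. The mast cell markers summed to 94.0 against 32.1 to 37.4 CPM. The platelet markers did not stand out, at 85.0 against 77.8 to 127 CPM, and the cardiomyocyte markers were lower, at 19785 against 30606 to 34915 CPM. The part of these cells in the result was not tested.

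At D15 all 9 genes rose, between 4.07-fold (Lyn) and 52.0-fold (Fgr), and the 4 EAM hearts lay close together. By the same rule 18.1% of the 15693 genes tested were called higher and 12.9% lower. Of all genes, 34.6% were higher in every EAM heart than in every control heart, and all 9 members were among them. The median log2 fold change of the 9 was 3.11, against 0.02 for all genes. The FDR values of the members lay between 1.31e-08 and 1.19e-07 in edgeR's quasi-likelihood test.

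At the head of the pathway, the Src family kinases Lyn and Fgr gave the smallest and the largest change. Lyn, which phosphorylates both activating and inhibitory receptors, had 155, 140, 133 and 148 CPM in the 4 EAM hearts and 39.4, 32.0, 37.0 and 37.0 CPM in the controls. It was well expressed in the control heart already, and its log2 fold change was 2.02 (SE 0.08). Fgr had 105, 91.6, 87.0 and 93.7 CPM in EAM hearts and 1.09, 2.66, 1.97 and 1.77 CPM in controls. The control level was low, though above the limit of 3 counts (0.120 to 0.190 CPM), and the log2 fold change was 5.70 (SE 0.19).

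Syk, the kinase that docks on phosphorylated ITAMs, had 213, 232, 178 and 202 CPM in EAM hearts against 40.5, 42.9, 49.1 and 44.0 CPM in controls. No EAM heart came near the control range, and the change was 4.80-fold (log2 2.26, SE 0.10). Btk, best known for its role in B cells and also present in myeloid cells, had 33.4, 36.3, 27.9 and 32.1 CPM against 2.24, 2.01, 2.64 and 2.06 CPM. Its change of 14.8-fold (log2 3.89, SE 0.13) was smaller than those of Fgr and Vav1 alone.

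Vav1 had 106, 100.3, 81.0 and 95.7 CPM in D15 EAM hearts and 5.78, 5.97, 6.79 and 5.54 CPM in controls. The change was 16.3-fold (log2 4.03, SE 0.11), next to that of Ptprc, the gene of the leucocyte surface phosphatase CD45 (log2 3.98, SE 0.12). Even the lowest EAM heart, replicate 3, was far above the highest control.

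The lipid kinase genes Pik3cd and Pik3cg rose as well. Pik3cd had 104, 90.9, 96.0 and 94.7 CPM in EAM hearts and 9.59, 11.9, 13.3 and 11.2 CPM in controls, a change of 8.62-fold (log2 3.11, SE 0.10). Pik3cg, whose product answers G protein-coupled receptors such as those for chemokines, had 49.4, 43.7, 38.1 and 44.0 CPM against 7.19, 6.67, 6.84 and 6.77 CPM. Both groups of hearts were tight, and the change of 6.54-fold (log2 2.71, SE 0.09) was below that of Pik3cd.

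Plcg2 had 73.9, 70.7, 66.7 and 79.3 CPM in EAM hearts against 15.2, 12.8, 15.2 and 15.8 CPM in controls. Prkcd, the protein kinase C gene of the set, had 233, 228, 210 and 230 CPM against 26.6, 24.4, 28.5 and 23.2 CPM. Groups did not overlap for either gene. The change was 5.05-fold for Plcg2 (log2 2.34, SE 0.09) and 9.01-fold for Prkcd (log2 3.17, SE 0.09).

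**Figure D2:**
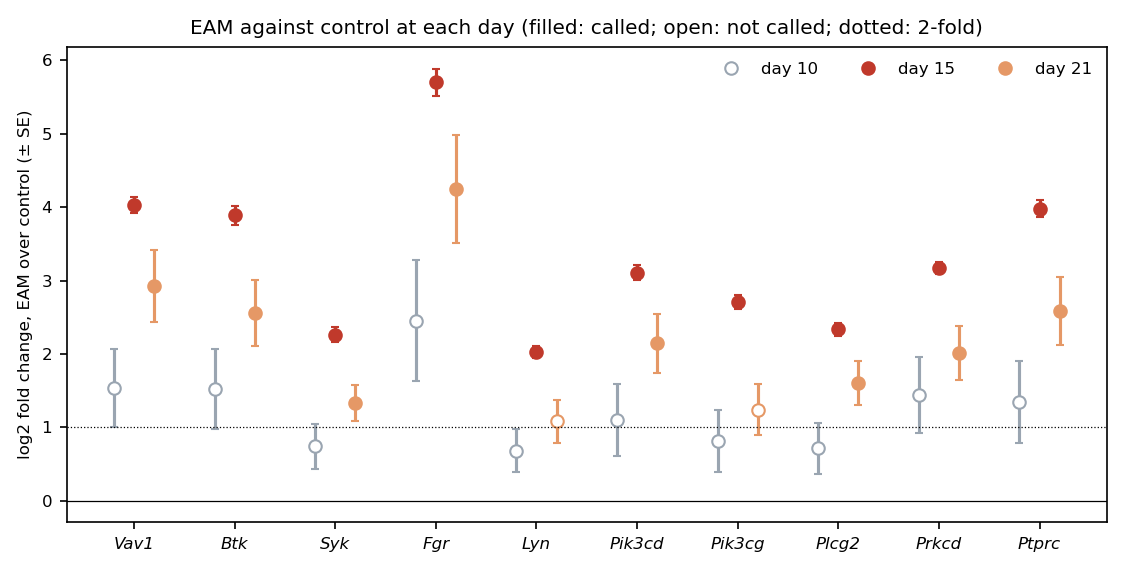
Fitted log2 fold change of EAM over control for each gene at D10, D15 and D21, with bars of 1 SE and Ptprc at the right; filled points passed FDR under 0.01 and 2-fold. D15 points run from 2.02 (Lyn) to 5.70 (Fgr) with short bars, none of the D10 points passed, and at D21 Lyn and Pik3cg did not pass.

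Markers of many leucocyte types moved with the 9 genes at D15, and the heart portion was not sorted. In bulk tissue, fewer cells of a type and less RNA per cell cannot be told apart, and the same holds for more of either. The monocyte and macrophage markers were called higher for 8 of 8 genes, with sums of 3285 to 4637 CPM in EAM hearts against 567 to 646 CPM in controls. The neutrophil markers were called higher for 8 of 8, with 578 to 997 against 19.0 to 89.1 CPM. The T cell markers were called higher for 8 of 8, with 50.7 to 74.4 against 2.24 to 3.60 CPM, and the NK cell markers for 7 of 7 tested, with 22.7 to 42.2 against 1.09 to 2.50 CPM and Klra8 under 3 counts in both groups. The B cell markers were called higher for 3 of 5 tested, with 6.21 to 32.1 against 1.47 to 2.71 CPM, and most of that sum was Cd22, named here after its values were seen. Of the mast cell markers 1 of 7 tested and of the platelet markers 2 of 5 tested were called higher, and of the erythroid markers 1 of 5 tested was called lower. Of 8 cardiomyocyte markers 6 were called lower, with sums of 7973 to 20943 CPM against 31178 to 35686 CPM. Mitochondrial genes took 3.19% to 4.31% of the reads in D15 EAM hearts and 6.10% to 7.14% in controls. The part of these cells in the changes of the 9 genes was not tested.

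At D21 the 9 genes were again higher in EAM hearts, and 7 of them passed the test, all but Lyn and Pik3cg. By the same rule 4.13% of the 15266 genes tested were called higher and 1.16% lower. The 7 called members were also higher in every EAM heart than in every control, as were 17.8% of all genes. The median log2 fold change of the 9 was 2.01, against -0.01 for all genes. Of the markers, 4 of 4 general leucocyte genes, 8 of 8 T cell, 4 of 4 tested NK cell, 5 of 8 monocyte and macrophage, 1 of 8 neutrophil and 1 of 2 tested B cell genes were called higher at D21, 1 of 7 tested mast cell genes was called lower, and their part was not tested.

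Fgr had 53.3, 28.1, 7.55 and 70.3 CPM in the D21 EAM hearts against 3.46, 1.01, 1.09 and 3.12 CPM in controls. Vav1 had 64.8, 33.9, 15.6 and 82.7 CPM against 6.81, 5.76, 5.43 and 8.66 CPM. For both genes replicate 3 was the lowest EAM heart yet above all controls, and replicate 4 was the highest. The log2 fold change was 4.24 for Fgr (SE 0.74, FDR 0.00719) and 2.92 for Vav1 (SE 0.49, FDR 0.0068).

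Btk rose by 2.56 on the log2 scale (SE 0.45), Pik3cd by 2.15 (SE 0.40) and Prkcd by 2.01 (SE 0.37). Plcg2 rose by 1.60 (SE 0.29) and Syk by 1.33 (SE 0.24), and the FDR of these 5 lay between 0.00721 and 0.00867. Lyn had 96.6, 65.2, 44.0 and 124 CPM in EAM hearts against 39.5, 36.4, 38.9 and 44.4 CPM in controls, so that replicate 3 overlapped the controls (log2 1.08, SE 0.29, FDR 0.0254). Pik3cg had 22.0, 13.6, 8.69 and 29.1 CPM against 9.05, 6.58, 7.31 and 8.81 CPM, with the same heart inside the control range (log2 1.24, SE 0.35, FDR 0.0291).

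The D21 EAM hearts kept 1 order for all 9 genes at their ends. Replicate 4 was the highest for 9 of 9, with a median of 6.61 times the control mean, and replicate 3 the lowest for 9 of 9, with a median of 1.86 times. Replicates 1 and 2 stood between at 4.61 and 2.66 times. In replicate 3 the 4 general leucocyte genes summed to 252 CPM against 477 to 1031 CPM in the other 3 EAM hearts, and the cardiomyocyte markers to 35797 against 15319 to 26819 CPM. The neutrophil markers did not follow that order, with 208 CPM in replicate 3 and the lowest sum, 121 CPM, in replicate 2. The monocyte and macrophage, T cell and B cell markers were lowest in replicate 3, at 1337, 19.9 and 7.62 CPM. These were highest in replicate 1 and not in replicate 4, at 4414, 77.0 and 26.4 CPM. The NK cell and mast cell markers kept both ends, at 8.22 and 24.4 CPM in replicate 3 and 35.7 and 66.1 CPM in replicate 4. The erythroid markers were highest in replicate 3, at 324 CPM against 62.9 to 172 CPM.

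The D21 calls lay close to the threshold. Leaving out any of the 4 controls, EAM replicate 1 or EAM replicate 2 left 0 of 9 called with edgeR's quasi-likelihood test, leaving out replicate 3 gave 9 and leaving out replicate 4 gave 5. Over all genes the number called higher was 630 with every heart, 0 to 8 in the fits that left 0 members, 1477 without replicate 3 and 298 without replicate 4, so the calls were lost and gained over all genes and not in the members alone. DESeq2 and the likelihood ratio test called 9 of 9, with 1364 and 1356 genes higher in all, while limma-voom called 0 of 9 (FDR 0.0132 to 0.0522) and 80 genes higher in all, and all 9 had an unadjusted p under 0.05 in the quasi-likelihood test, against 25.2% of all genes higher at that limit.

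Whether the EAM effect itself differed between days was tested in a fit of all 24 hearts. The effect was larger at D15 than at D10 for 7 of 9 members, against 5.38% of 16318 genes called larger and 7.35% called smaller at D15. The difference was 2.45 for Vav1 (SE 0.65, FDR 0.00572) and 2.32 for Btk (SE 0.64) on the log2 scale, 1.96 for Pik3cd, 1.85 for Pik3cg, 1.57 for Plcg2, 1.47 for Syk (SE 0.36, FDR 0.0036) and 1.29 for Lyn. Fgr (3.19, SE 1.01, FDR 0.0149) and Prkcd (1.68, SE 0.57, FDR 0.0207) did not pass. Without D10 EAM replicate 1 the test called 9 of 9, and for 13 of the 16 D10 and D15 hearts left out in turn it called 1 to 3, Syk being called for all 16. Over all genes, 878 were called larger at D15 with every heart, 1999 without D10 EAM replicate 1 and 486 to 688 in the fits that called 1 to 3 members.

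From D15 to D21 the fitted EAM effect was smaller for 9 of 9 members, by 0.72 (Plcg2) to 1.46 (Pik3cg) on the log2 scale, and 0 of 9 passed in edgeR's quasi-likelihood test, against 2.74% of genes called larger and 0.919% called smaller at D21. At an unadjusted p under 0.05 there were 3 members, Syk, Lyn and Pik3cg, against 17.3% of all genes smaller at that limit. DESeq2, the likelihood ratio test and limma-voom also called 0 of 9. The median of the 9 was -1.10. A missed threshold does not show that the effects at D15 and D21 were alike, and the 4 D21 EAM libraries differ in library code.

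Control hearts were compared among themselves to see how far the 9 genes moved after adjuvant and PTX without peptide. From D10 to D15 none of the 9 passed with edgeR's quasi-likelihood test, against 0.0% of 15311 genes called higher and 0.0718% lower, and 6 of 9 had an unadjusted p under 0.05 and a lower level at D15, against 8.37% of all genes. Fgr had 6.85, 5.28, 5.06 and 3.77 CPM in the D10 controls and 1.09, 2.66, 1.97 and 1.77 CPM in the D15 controls. The log2 difference was -1.48 (SE 0.37, FDR 0.0591). DESeq2 (FDR 0.00549) and the likelihood ratio test (FDR 0.00701) called Fgr lower and no other member, with 84 and 96 genes called lower in all. Btk (-0.74) and Vav1 (-0.68) followed, and Prkcd was the least changed at -0.04. Beside these values, the 4 general leucocyte genes summed to 120 to 218 CPM in D10 controls and 91.8 to 114 CPM in D15 controls, all 4 lower at an unadjusted p under 0.05 and Ptprc at -0.79 (FDR 0.0543). The neutrophil markers summed to 135 to 252 CPM in D10 controls and 19.0 to 89.1 CPM in D15 controls, and the platelet markers to 61.5 to 167 and 12.4 to 17.3 CPM. The monocyte and macrophage markers summed to 596 to 1248 and 567 to 646 CPM, 6 of 8 lower at an unadjusted p under 0.05. The mast cell markers changed little, at 25.6 to 28.0 and 23.7 to 29.2 CPM. The part of these cells was not tested. From D15 to D21 the log2 differences of the 9 lay between 0.08 (Syk) and 0.41 (Btk), 0 of 9 passed with edgeR's quasi-likelihood test and 0 of 9 had an unadjusted p under 0.05 (4.74% of all genes had one and were higher, 5.0% lower), and DESeq2, the likelihood ratio test and limma-voom called 0 of 9 too, with 0.0% of all genes called higher and 0.0% lower.

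Each of the 9 genes belongs to a family whose other genes are used more widely or by other leucocytes, so the share of each family's summed CPM per kb that came from the member was followed. In D15 control hearts most family transcripts came from other genes, except in the pair of Syk and Zap70. Vav1 made up 18.7% ± 2.38 (SD, n = 4) of the Vav family, where Vav2 had 56.8%, and Btk 7.58% ± 0.66 of the Tec family, where Tec had 70.5%. Plcg2 made up 22.5% ± 1.39 against 77.5% for Plcg1. Pik3cd and Pik3cg together made up 14.6% ± 1.02 of class I PI 3-kinase catalytic transcripts, where Pik3ca alone had 59.4%.

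At D15 in EAM these shares turned over. Vav1 made up 70.7% ± 1.53 of its family, with the 4 hearts between 69.0% and 72.7% and the 4 controls between 15.9% and 21.5%. Plcg2 reached 69.5% ± 2.25, Prkcd went from 14.9% ± 1.30 to 62.1% ± 2.05 of the protein kinase C family, and Btk reached 47.8% ± 3.32 of the Tec family. Pik3cd went from 10.1% ± 1.19 to 42.0% ± 1.69 and Pik3cg from 4.49% ± 0.223 to 14.1% ± 1.21, so that together they held 56.1% ± 2.27. Groups of hearts did not overlap for any of these shares.

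The Src and Syk families behaved otherwise. Fgr went from 1.17% ± 0.505 to 16.4% ± 0.564 of the Src family, while Lyn went only from 21.0% ± 1.73 to 23.7% ± 0.543, and the groups met at 23.2%, the highest control and the lowest EAM heart. Syk went from 97.9% ± 0.517 to 90.9% ± 0.964 of the pair it forms with Zap70, the related kinase of T cells, which had the rest. At D21 in EAM the shares lay lower and spread more, as for Vav1 with 54.8% ± 14.9 and Prkcd with 40.5% ± 14.2, and Lyn with 22.4% ± 0.592 lay at the control level of 22.8% ± 0.581.

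**Figure D3:**
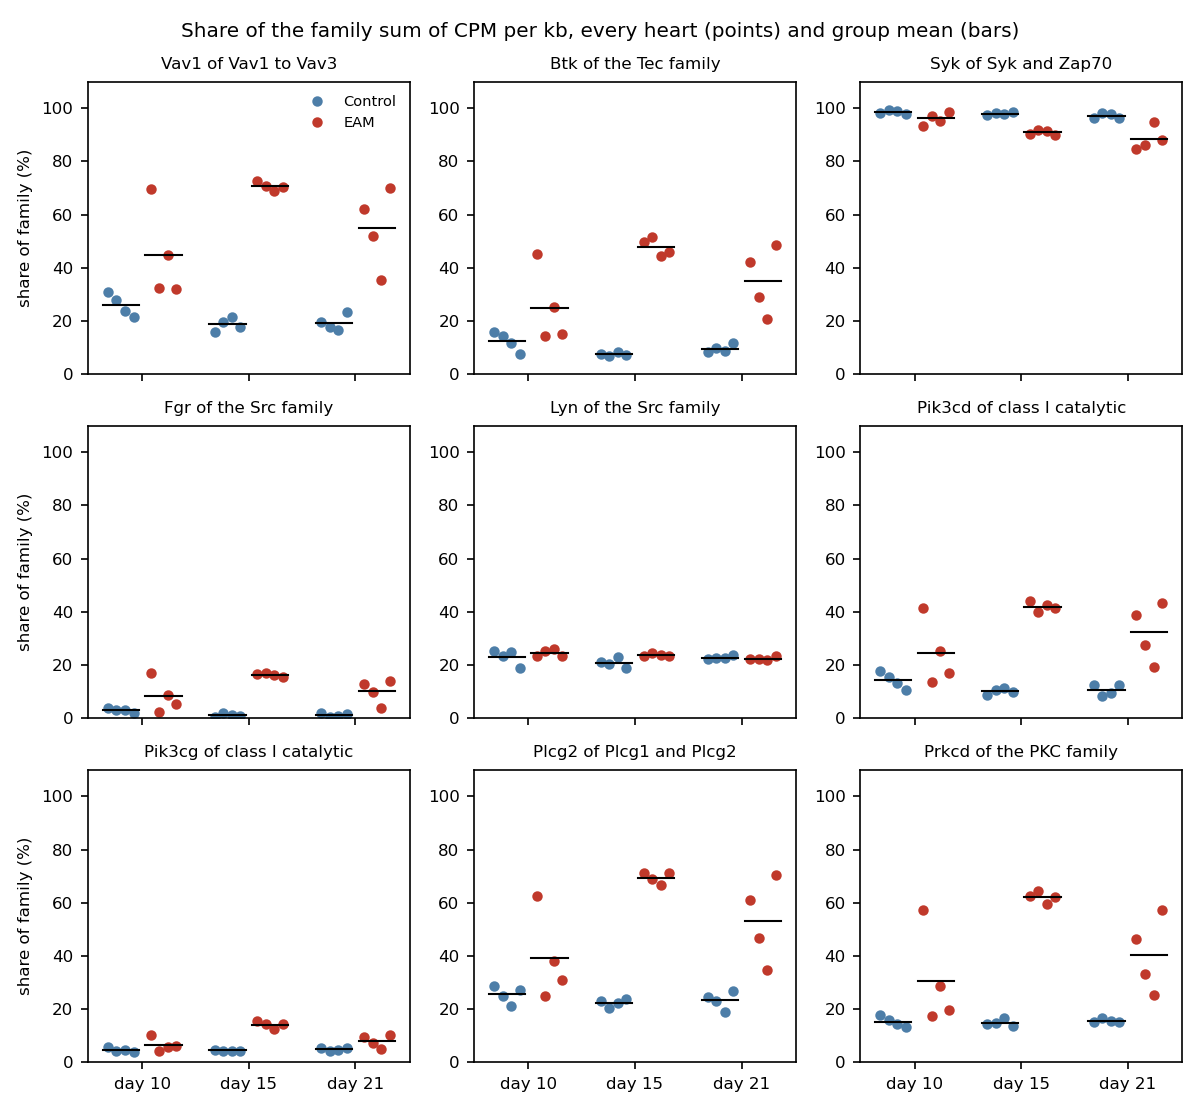
Share of each gene family's summed CPM per kb that came from the named gene (y axis, percent), per heart (points) with group means, for control and EAM hearts at D10, D15 and D21. At D15 Vav1 goes from 18.7% to 70.7% and Prkcd from 14.9% to 62.1%, while Lyn stays between 19.1% and 24.5%.

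Of the 24 family genes that are not members, edgeR's quasi-likelihood test called 8 higher at D15 (18.1% of all genes were), and the group had a median log2 fold change of 0.16. None was called lower (12.9% of all genes were) by it, DESeq2, the likelihood ratio test or limma-voom, and 9 had a lower level at an unadjusted p under 0.05 (37.3% of all genes did). Among the called genes were those of T cell kinases (Lck 4.72, Zap70 4.46 and Txk 3.69), the kinase gene Src (2.88), the protein kinase C gene Prkcb (2.57) and Vav3 (1.10). The other 16 were not called, with 0.35 for Vav2, 0.36 for Tec, -0.18 for Pik3ca, 0.56 for Pik3cb, -0.64 for Plcg1, -0.40 for Fyn and -0.54 for Yes1. The remaining 9, from Prkcz at the lower end to Blk at the upper, lay between -0.93 and 0.19. At D21, 5 of 23 tested were called higher (4.13% of all genes were), Zap70, Lck and Src among them, against 6 with DESeq2, 6 with the likelihood ratio test and 1 with limma-voom. Bmx, at -1.06 on the log2 scale, was called lower at D21 by DESeq2 and the likelihood ratio test only.

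The members were next set against Ptprc in each heart, as a leucocyte yardstick within the same library. Vav1 had nearly the same ratio in both groups, with 33.8% ± 4.97 of the Ptprc CPM in D15 controls and 34.8% ± 3.13 in D15 EAM hearts. Btk did likewise, with a log2 ratio of -3.01 ± 0.244 in controls and -3.09 ± 0.186 in EAM hearts. Fgr went from 10.5% ± 4.13 to 34.3% ± 2.10 of Ptprc, and it was the one member above in every EAM heart, against 1.02% of all genes. Of the others, 6 of 9 lay lower relative to Ptprc in every EAM heart than in every control, as did 95.5% of all genes. Lyn went from 203% ± 23.9 to 52.4% ± 2.67 and Syk from 247% ± 27.1 to 75.1% ± 10.5, while Pik3cd (-0.86) and Prkcd (-0.80) shifted least of the 6 on the log2 scale.

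At D21 the ratios to Ptprc had the same order at both ends, with Fgr 1.62 higher in EAM than in control hearts on the log2 scale and Lyn 1.43 lower. Fgr was above without overlap, against 0.962% of all genes, and 5 members (Syk, Lyn, Pik3cd, Pik3cg and Plcg2) were below, against 89.8%. At D10 the groups overlapped for 9 of 9 members, and 0.373% of all genes were above and 2.76% below without overlap. With the mean of Ptprc, Laptm5, Coro1a and Cd53 as the yardstick, Vav1 was also above without overlap at D15, by 0.33 on the log2 scale, against 1.42% of all genes, and the difference for Btk was 0.20 rather than -0.08.

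**Figure D4:**
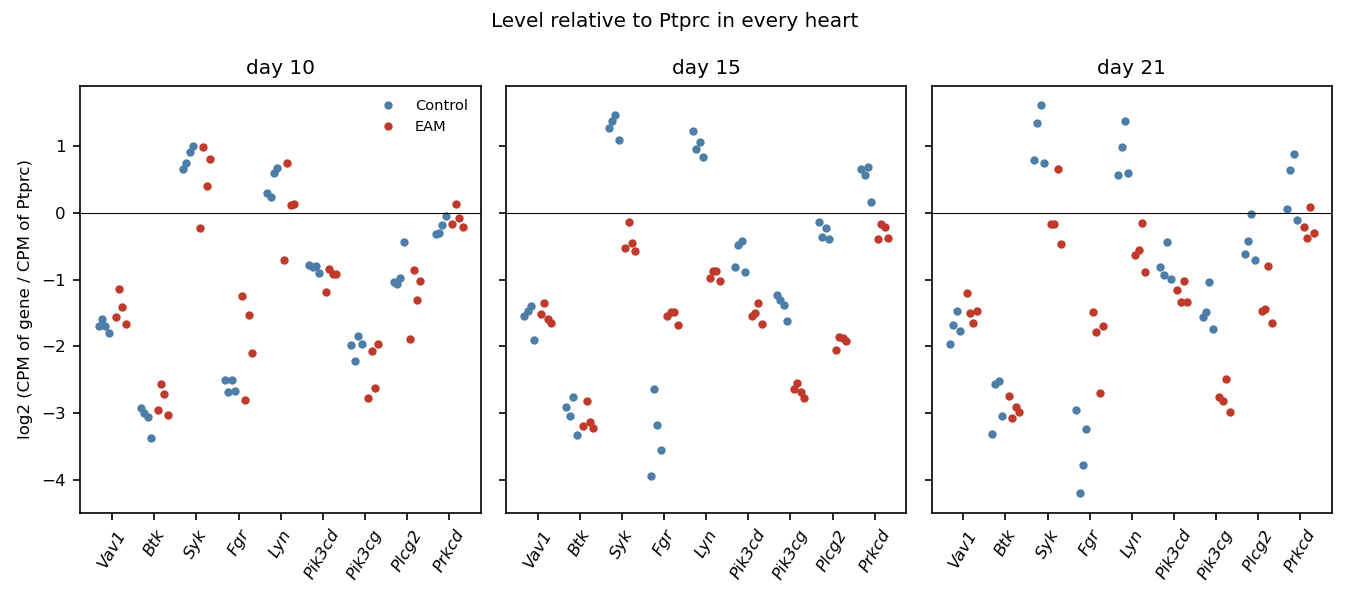
Log2 ratio of each gene's CPM to the CPM of Ptprc in the same heart, for control and EAM hearts at D10, D15 and D21. At D15 Vav1 and Btk overlap between groups, Fgr is higher in EAM by 1.78, and Lyn is lower by 1.95.

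These unequal changes gave another order of levels in EAM hearts at D15. Prkcd was the highest at 40.7 ± 1.90 CPM per kb (SD, n = 4) and Lyn the second at 35.4 ± 2.31, and both ranks held in 4 of 4 hearts. Vav1 (26.0 ± 2.94), Fgr (24.4 ± 1.99) and Syk (22.0 ± 2.42) followed, neighbours in this order being reversed in 1 heart each. Plcg2 (16.9 ± 1.24), Pik3cd (15.4 ± 0.915), Btk (10.3 ± 1.11) and Pik3cg (5.20 ± 0.549) were lower and kept their order in 4 of 4 hearts. With the longest transcript as the length, Syk came before Vav1 and Fgr, and Pik3cd before Plcg2. Summed over the 9 genes, the level was 196 ± 13.0 CPM per kb in D15 EAM hearts against 27.2 ± 1.52 in controls, and between 48.1 and 166 in the 4 D21 EAM hearts.

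The partners of the 9 enzymes were taken as 6 lists, with 55 genes tested at D15, of which 43 were called higher, 1 lower and 11 not called, against 18.1% of all genes higher and 12.9% lower. The median log2 fold change of the 55 was 2.92, against 0.02 for all genes. At D10 0 of 54 were called in edgeR's quasi-likelihood test, while 25 had a higher level with an unadjusted p under 0.05 (9.71% of all genes did), and DESeq2, the likelihood ratio test and limma-voom also called 0 of 54. At D21, 26 of 54 were called higher (4.13% of all genes were), and the number was 38 with DESeq2, 38 with the likelihood ratio test and 2 with limma-voom, where 1364, 1356 and 80 of all genes were called higher.

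Upstream, 6 of 7 tested ITAM and related receptor chains were called higher at D15 (median 3.30), from Hcst (4.40), a chain that docks PI 3-kinase, at the top to Cd79a, the B cell receptor chain, which did not pass (1.29, and 0.48 without EAM replicate 2). Of the adaptors, 11 of 14 were called higher (median 3.32), with Lat, the scaffold of T cells and mast cells, at 4.34 and Grap at -0.50, not called. The regulatory subunits of PI 3-kinase split, with 2 of 5 called and a median of -0.10. Pik3r5, which partners the product of Pik3cg, was at 4.68, and Pik3r3 at -0.72 did not pass.

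Inhibitors of the pathway were called higher for 12 of 13 genes (median 2.67). Ptpn6, the gene of the phosphatase SHP-1, had the largest change at 3.90. Of the small GTPases and their relatives downstream of Vav1, 7 of 9 were called higher (median 3.17), with Rhoh at 3.84 and the widely expressed Rac1 at 0.44, not called. Of the CARD and RasGRP genes, 5 of 7 were called higher and 1 lower (median 2.67). Rasgrp1, a Ras activator of T cells, had 5.05, and Rasgrp3 fell by 1.27 on the log2 scale (SE 0.08, FDR 7.92e-07). The called numbers at D21 were 4 of 6 receptor chains, 9 of 14 adaptors, 1 of 5 PI 3-kinase subunits, 4 of 13 inhibitors, 6 of 9 GTPase genes and 2 of 7 CARD and RasGRP genes.

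**Figure D5:**
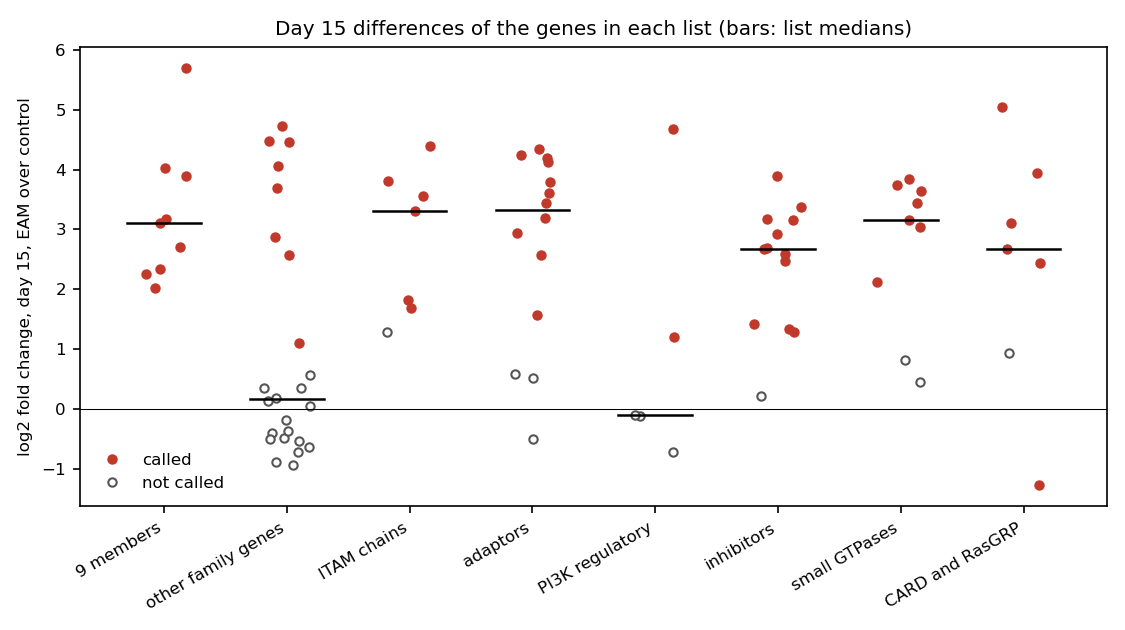
Fitted log2 fold change at D15 (y axis) of each tested gene in the 9 members, their family relatives and the 6 partner lists, by list (x axis), with filled points for genes past FDR under 0.01 and 2-fold and bars at the list medians. The family relatives split into 8 called genes and 16 between -0.93 and 0.56, while the members' median is 3.11.

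Over the 24 hearts, profiles were compared as the mean absolute difference between log2(CPM + 1) values, each gene's own mean removed, among the 11698 genes whose mean reached 5 CPM. Spi1, the gene of PU.1, and Myo1f were the 2 genes nearest to Vav1, at 0.118 each. Nearest were Ctsz (0.114) and Cotl1 (0.123) to Btk, D1Ertd622e (0.0990) and Fes (0.107) to Syk, and Sh3bp1 (0.0935) and Fes (0.111) to Plcg2. Lyn had Cap1 (0.0672) and Tpm3-rs7 (0.0707), and Fgr had Cd52 (0.208) and Slfn1 (0.220). The difference grows with how much a gene varies, so it does not rank the members. Pik3cd had Nfam1 (0.114) and Rassf5 (0.124), Pik3cg had Cnr2 and Akna (0.136 each), and Prkcd had Snx10 and Slc9a3r1 (0.129 each). Among the 9 themselves Syk and Lyn had the smallest difference (0.127), Vav1 and Btk lay at 0.176, and Fgr and Lyn had the largest (1.17). All points share the same libraries, and a near profile is a description of these hearts.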

How the data were processed

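RNA from a portion of each heart was sequenced as 75 bp pairs and, per the labels and the methods of the authors, aligned with HISAT2 to GRCm38, freed of duplicates with Picard and counted with featureCounts on Ensembl genes. The deposited values are raw read counts for 41388 genes, and 92 spike-in rows held 0 reads. The sources used here do not give the strand setting of the counting. Removal of duplicates can lower the counts of abundant genes.

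Testing was limited to genes that reached 10 reads in 4 or more hearts of a fit and was done with edgeR 4.0.16 (TMM, glmQLFit, glmQLFTest) in R 4.3.3 with Benjamini-Hochberg adjustment over all genes tested, 4 hearts against 4 for each day, 24 hearts for differences between days and 12 for control days. DESeq2 1.42.0, limma 3.58.1, other scalings, no filter, a replicate block and each heart left out were the alternatives. CPM values were TMM-scaled over 24 hearts, and lengths were summed exons of GENCODE M21. On counts simulated with the same set spread for every gene, 100% of 200 genes changed 4-fold were recovered at D10, D15 and D21 (among 15553 genes at D15). That spread was not taken from these hearts, so the recovery does not give the power of the tests here. The totals of 15814863 to 24980864 reads set a limit of 0.120 to 0.190 CPM for 3 counts, and this limit covers counting error only.

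The members, lists and tests were chosen with earlier results of these data known. Named were the 9 members, the genes of 7 families, Ptprc, the largest and smallest change of each partner list at D15 and those that fell, and the 2 nearest profiles of each member. Some genes that this rule covers are not reported here. Promoter windows are from RefSeq (GRCm38.p6). Spread is given as SD.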

Additional observations from a re-analysis of the deposited data

Results flagged for a closer look

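In the D10 EAM group replicate 1 stood apart from the other 3 hearts for Vav1, with 65.9 CPM against 12.6 to 21.4 CPM, a gap of 0.835 of the whole range. The same heart stood apart for Prkcd, with 172 CPM against 30.3 to 54.0 CPM, a gap of 0.833 of the range. In the D10 control group replicate 4 stood apart in the log2 ratio of Plcg2 to Ptprc, at -0.43, with a gap of 0.855. These were 3 of 174 groups of 4 values examined by Dixon's test for a stray value, and chance alone marks about 1 group in 20.

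The EAM effect at D15 was larger than that at D10 in the test of the difference itself for Vav1 (2.45 on the log2 scale), Btk (2.32), Pik3cd (1.96), Pik3cg (1.85), Plcg2 (1.57), Syk (1.47) and Lyn (1.29), with FDR between 0.0036 and 0.00981 in edgeR's quasi-likelihood test. All 9 members were called once D10 EAM replicate 1, the highest heart of its group for each of them, was left out, while for 13 of the 16 D10 and D15 hearts left out in turn 1 to 3 were.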

How the results depend on the processing

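At D15 all 9 members were called under all 28 alternatives, with log2 fold changes from 1.92 to 5.92 and FDR of at most 2.46e-05. At D10, 5 members (Vav1, Btk, Fgr, Pik3cd and Prkcd) were called with all 12 control hearts as controls, with 632 genes called higher in all. The likelihood ratio test without EAM replicate 2 called 1 (Fgr), with 180 genes higher in all. At D21 the 7 calls became 0 with limma-voom and 0 to 9 with a heart left out. The likelihood ratio test with a heart left out, tried after the data were seen, called 7 to 9, with 970 to 1636 genes higher in all. For the difference between D15 and D10, 7 calls became 1 to 9 with a heart left out, with 486 to 1999 genes called larger in all. They became 6 with DESeq2 size factors (920 genes in all), 5 with total counts (1017) and 5 with no filter (776). DESeq2 (1313 genes in all) and the likelihood ratio test (1249) called 9. Although limma-voom also called 7 (826 genes in all), Btk was lost and Prkcd gained. For D21 against D15, 1 member (Pik3cg) was called lower at FDR under 0.05 with no fold limit, as were 1699 of 16318 genes. With a heart left out 0 to 1 were called lower. The 1 was Pik3cg without D21 EAM replicate 4, where 446 genes were called lower in all. In controls DESeq2 and the likelihood ratio test each called 1 member (Fgr) lower at D15 than at D10, with 84 and 96 genes lower in all. The cause of these changes was not tested.

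The small control differences crossed 0 with a heart left out, the log2 value ranging from -0.108 to 0.0324 for Prkcd from D10 to D15 (above 0 without D10 control replicate 1 or D15 control replicate 4), from -0.0194 to 0.219 for Vav1 from D15 to D21 (below 0 without D21 control replicate 4) and from -0.125 to 0.430 for Fgr from D15 to D21 (below 0 without D15 control replicate 1, D21 control replicate 1 or D21 control replicate 4).

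With the longest transcript as the length, the EAM minus control share at D15 was -5.51 percentage points for Syk, 4.80 for Lyn, 11.0 for Pik3cg, 43.9 for Plcg2, 20.3 for Fgr and Lyn together and 43.6 for Pik3cd and Pik3cg together, and at D21 it was 0.95 for Lyn, which turned from below to above 0. Against the mean of 4 leucocyte genes, the D15 log2 ratio differed by 0.33 for Vav1, 0.20 for Btk, -1.44 for Syk, -1.67 for Lyn, -0.58 for Pik3cd, -0.995 for Pik3cg, -1.36 for Plcg2 and -0.53 for Prkcd, so Btk turned from below to above 0.

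Hearts with the same replicate number in EAM and control did not deviate together on every day, with correlations from -0.083 to 0.368 at D10, -0.095 to 0.035 at D15 and 0.0966 to 0.303 at D21, so the numbers were not taken as pairs. With the replicate block 0 members were called at D10, 9 at D15, 5 at D21 (Vav1, Btk, Fgr, Pik3cd and Plcg2) and 9 for D15 against D10, where 1, 2772, 601 and 1288 genes were called higher in all. The members had at least 21 reads in every heart, and the effect of depth on their calls was not tested.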
